A study of Mus musculus with 17 samples.

Results

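The loci described here belong to 42 mouse genes that make, sense, move or store cholesterol and fatty acids. They comprised 15 genes of sterol synthesis and transfer (Acat2, Hmgcs1, Mvk, Pmvk, Mvd, Idi1, Fdps, Fdft1, Sqle, Lss, Cyp51, Msmo1, Sc5d, Dhcr7 and Stard4). Another 5 encode sterol regulatory element-binding proteins (SREBPs) and the machinery that controls them (Srebf1, Srebf2, Scap, Insig1 and Insig2), and 10 act in fatty acid synthesis (Acly, Acaca, Fasn, Scd1, Scd2, Elovl1, Elovl5, Elovl6, Fads1 and Fads2). The 9 genes of liver X receptor (LXR) type serve cholesterol export and its nuclear receptors (Nr1h2, Nr1h3, Rxra, Pparg, Abca1, Abcg1, Apoe, Mylip and Lpcat3), and 3 serve lipid uptake and storage (Lpl, Plin2 and Soat1). The first 3 classes, 30 genes, are called the synthesis type. Open chromatin was mapped by ATAC-seq, whose transposase inserts adapters into accessible DNA, and every peak within 10 kb of the body of a member gene was assigned to that gene. Of 34144 consensus sites in the genome, 133 lay in these regions. Of these, 43 were promoter sites of a member, with the summit within 1 kb of a protein-coding start site, 10 were promoter sites of a neighbouring gene, and 80 lay elsewhere. Assignment was by distance alone, so a site may serve another gene. Each site had a score in each peak list, the percentile of its best peak among the 24389 best peaks of that list, from 100 for the best peak to 0 where the list held none. A peak among those best peaks is called a matched peak. A site written as a gene and a signed number is named by the distance of its summit in bp from the nearest start site of that gene, with + for downstream.

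The 17 lists came from bone marrow-derived macrophages (BMDMs) of male mice aged 6 to 12 weeks, differentiated for 7 days with L929-conditioned medium. Wild-type (WT) littermates were compared with whole-body Nur77 knockout (KO) mice, which the labels mark as cre. Their Nr4a1 locus, flanked by loxP sites, had been deleted by a Cre driven by the cytomegalovirus promoter. The Cre came from C57Bl6/J mice, the only strain the methods name, and the mice used no longer carried it. Cells of both genotypes were kept untreated (0 h) or received 100 ng/ml lipopolysaccharide (LPS), a bacterial cell wall component, for 1 or 18 h. Each group held 3 lists except WT at 1 h, which held 2, one of them labelled replicate 1-2. No label says which lists came from separate mice, so the tests measure the spread between these lists only.

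Cells hold their sterol content steady through SREBPs, which SCAP escorts out of the endoplasmic reticulum when sterol is low and INSIG proteins hold back when sterol is high. Released SREBPs switch on genes of cholesterol and fatty acid synthesis. LXRs act in the opposite situation: they bind oxidised sterols, pair with the retinoid X receptor and switch on exporters such as ABCA1 and ABCG1, a pathway central to macrophages, which take up whole cells and lipoproteins.

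The lists differed in depth. The depth index, background reads per kb recovered from the deposited columns, was 0.720 to 9.75 at 0 h, 0.382 to 4.14 at 1 h and 1.10 to 8.38 at 18 h. Of 8 macrophage marker genes, 4 had a promoter peak in all 17 lists and the other 4 in 12 to 16. Among the markers of other cell types, Cd3d had a promoter peak in 17 lists, S100a8 in 15, Col1a1 in 14, Ms4a1 in 10 and Pdgfra in 1, and the other 11 in none. KO 18 h replicate 1 stood apart: its site scores correlated at 0.685 and 0.728 with those of its group, against 0.855 to 0.979 for the other 14 pairs of lists within a group. The total counts of called sites and those of the synthesis type, the LXR type and uptake and storage are given with and without it, and so are the promoter scores whose mean it moved by more than 1.5 or whose SD it raised more than 1.5 times.

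The following 9 sequences belong to sites that were among the 12 with the smallest adjusted p at 1 h or 18 h of LPS. They were chosen from these after the values were seen, to show both directions and the sites of the export genes. Each is the 151 bases around the summit of the site, plus strand of GRCm38 (mm10). Capitals mark matches, on either strand, to the motifs of NF-Y (CCAAT), AP-1 (TGANTCA), PU.1 (GAGGAAGT), C/EBP (TTGCNNAA), NBRE (AAAGGTCA, the Nur77 monomer motif) and SRE (TCACNCCAC, the SREBP element), and to NF-kB, ISRE and DR4 (the LXR element), which are given by name.
Scap intron, chr9:110349048-110349198: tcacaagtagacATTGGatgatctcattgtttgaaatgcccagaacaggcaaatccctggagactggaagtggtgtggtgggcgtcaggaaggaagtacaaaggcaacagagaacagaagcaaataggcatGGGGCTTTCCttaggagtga
Insig2 upstream, chr1:121334418-121334568: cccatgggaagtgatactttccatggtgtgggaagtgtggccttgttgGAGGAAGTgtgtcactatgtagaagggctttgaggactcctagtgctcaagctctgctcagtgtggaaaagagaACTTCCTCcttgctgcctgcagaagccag
Scd2 upstream, chr19:44284205-44284355: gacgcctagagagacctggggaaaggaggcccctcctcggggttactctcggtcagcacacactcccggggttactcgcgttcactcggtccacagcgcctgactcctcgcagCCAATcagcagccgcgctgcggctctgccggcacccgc
Abca1 intron, chr4:53126893-53127043: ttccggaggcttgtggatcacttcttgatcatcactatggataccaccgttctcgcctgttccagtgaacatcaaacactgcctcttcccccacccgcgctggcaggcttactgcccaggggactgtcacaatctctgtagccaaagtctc
Abca1 intron, chr4:53118910-53119060: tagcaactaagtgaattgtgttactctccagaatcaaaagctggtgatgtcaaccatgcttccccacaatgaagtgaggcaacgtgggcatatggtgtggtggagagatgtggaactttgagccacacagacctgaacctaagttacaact
Abcg1 intron, chr17:31067189-31067339: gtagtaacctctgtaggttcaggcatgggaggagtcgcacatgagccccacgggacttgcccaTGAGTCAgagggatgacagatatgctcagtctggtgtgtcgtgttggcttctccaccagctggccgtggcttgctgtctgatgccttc
Abcg1 intron, chr17:31075525-31075675: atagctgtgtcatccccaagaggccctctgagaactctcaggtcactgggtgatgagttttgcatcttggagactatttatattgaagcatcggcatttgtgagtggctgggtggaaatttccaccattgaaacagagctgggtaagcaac
Nr1h3 promoter, chr2:91194965-91195115: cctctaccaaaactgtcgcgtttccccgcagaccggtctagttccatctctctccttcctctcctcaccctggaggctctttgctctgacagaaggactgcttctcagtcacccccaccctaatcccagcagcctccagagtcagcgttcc
Lpl promoter, chr8:68880565-68880715: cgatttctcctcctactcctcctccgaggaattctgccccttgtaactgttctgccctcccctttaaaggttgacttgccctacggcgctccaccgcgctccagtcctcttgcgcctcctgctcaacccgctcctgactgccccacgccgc

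The following 3 RefSeq promoters of the synthesis type (GRCm38, 250 bases before to 50 after the start site, in the direction of transcription) are shown for their CCAAT boxes, which bind NF-Y, a partner of SREBPs. Capitals mark CCAAT and, in Hmgcs1, the only SRE match among the 23 synthesis-type genes with an entry, 137 bases upstream of the start site.
Hmgcs1, chr13:119690101-119690400, plus strand: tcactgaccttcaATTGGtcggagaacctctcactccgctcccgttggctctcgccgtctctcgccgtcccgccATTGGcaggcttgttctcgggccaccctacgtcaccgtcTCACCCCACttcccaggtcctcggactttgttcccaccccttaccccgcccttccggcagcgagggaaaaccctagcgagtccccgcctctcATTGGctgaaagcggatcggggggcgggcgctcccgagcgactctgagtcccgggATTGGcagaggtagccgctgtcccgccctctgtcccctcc
Mvd, chr8:122443373-122443672, minus strand: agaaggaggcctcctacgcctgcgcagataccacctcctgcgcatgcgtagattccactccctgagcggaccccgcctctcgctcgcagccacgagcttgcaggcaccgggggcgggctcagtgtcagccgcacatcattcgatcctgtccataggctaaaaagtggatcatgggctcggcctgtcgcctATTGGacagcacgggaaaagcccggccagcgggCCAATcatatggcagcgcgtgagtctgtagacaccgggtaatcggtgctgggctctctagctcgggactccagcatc
Insig1, chr5:28071162-28071461, plus strand: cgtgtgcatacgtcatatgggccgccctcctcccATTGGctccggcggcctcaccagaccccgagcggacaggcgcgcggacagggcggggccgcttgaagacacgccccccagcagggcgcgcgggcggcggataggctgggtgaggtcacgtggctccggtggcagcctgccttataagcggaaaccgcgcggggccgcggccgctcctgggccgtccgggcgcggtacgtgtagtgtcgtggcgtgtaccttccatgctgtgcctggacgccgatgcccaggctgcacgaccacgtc

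CCAAT was found in 10 of the 14 sterol synthesis promoters (71.4%), from 10 of 11 genes, against 37.4% of all 32851 RefSeq promoters on the assembled chromosomes. In the fatty acid class it was in 4 of 8 promoters and in the LXR class in 4 of 14 (28.6%). The SRE was in 1.24% of all promoters. A match is a description of letters, not of binding.

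Most promoters of sterol synthesis ranked near the top of the lists. Of the 15 genes of this class, 13 had a promoter peak in all 17 lists and 9 had a mean score above 90, with each gene taken at its best promoter peak. Site by site, 14 of the 17 promoter sites of the class (82.4%) had a peak in all lists and 9 (52.9%) a mean above 90, against 60.2% and 15.5% of all promoter sites. Hmgcs1, which makes the precursor of mevalonate, had the highest promoter score of the class, 97.9 ± 1.47 (SD, 17 lists), with a lowest value of 92.9. Close below were Fdft1, squalene synthase (97.1 ± 1.30), Mvk, mevalonate kinase (97.0 ± 2.07), Mvd, mevalonate decarboxylase (96.7 ± 0.918), and Idi1, the isomerase that follows (95.4 ± 3.77). Neighbours in this order down to Mvd differed by less than either SD. Acat2, Dhcr7, Fdps and Stard4 were also above 90, Msmo1 at 86.9 ± 4.08 and Sqle, squalene epoxidase, at 82.5 ± 12.9 followed, and Lss (75.7 ± 10.2) and Sc5d (57.0 ± 11.5) were lower. The lowest was Pmvk, phosphomevalonate kinase, at 22.4 ± 12.9, with no promoter peak in KO 18 h replicate 1 and a highest value of 46.2. Pmvk also had the most sites of the class, 4. Cyp51, a sterol demethylase, lacked a promoter peak in KO 18 h replicate 1 as well and scored 71.7 ± 21.1 over all lists. Without that list Cyp51 scored 76.2 ± 10.5 (SD, 16 lists), Sqle 85.2 ± 6.43, Mvk 97.4 ± 0.874 and Pmvk 23.8 ± 11.9.

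Among the SREBP regulators, Srebf2, which encodes the SREBP of cholesterol synthesis, had the highest promoter score, 94.9 ± 1.68 (SD, 17 lists), followed by Insig1 at 94.0 ± 2.15 and Insig2 at 86.9 ± 4.82. Srebf1, whose SREBP favours fatty acid synthesis, had 65.8 ± 10.3. Scap had the lowest, 52.6 ± 17.2, with a peak in 16 lists and none in KO 18 h replicate 1, without which it was 55.9 ± 10.9 (SD, 16 lists). Srebf2 and Insig1 differed by less than either SD. Srebf1 and Srebf2 shared the highest number of sites in the class, 4 each. Fatty acid genes ranged more widely. The promoter of Acaca, acetyl-CoA carboxylase, reached 93.2 ± 3.29, and 7 of the 10 genes had a promoter peak in all lists. Elovl6, a fatty acid elongase, had a promoter peak in none of the 17 lists of equal length, although 8 of the full deposited lists held one. The desaturases Scd1 and Fads2 had one in 10 and 12 lists and scored 12.3 ± 13.7 and 30.2 ± 23.3. Fasn (88.3 ± 7.18), Elovl1 (86.2 ± 4.50), Acly, ATP citrate lyase (84.5 ± 5.09), Elovl5 (81.3 ± 8.01), Scd2 (69.9 ± 11.8) and Fads1 (57.7 ± 15.9) lay between. Acaca, Fasn, Elovl5 and Fads1 had 4 sites each, the most of their class. Without KO 18 h replicate 1 the scores were 67.5 ± 7.79 (SD, 16 lists) at Srebf1, 89.7 ± 4.59 at Fasn, 59.5 ± 14.5 at Fads1 and 32.1 ± 22.7 at Fads2.

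Of the 9 LXR-type promoters, 4 had a peak in all 17 lists, those of Lpcat3, a phospholipid remodelling enzyme (93.6 ± 4.04, SD, 17 lists), Abca1 (89.9 ± 3.94), Mylip, which marks the LDL receptor for degradation (89.4 ± 6.40), and Nr1h2, LXR beta (78.0 ± 12.9). The other 5 had one in only some lists: Pparg in 10, Nr1h3, LXR alpha, in 9, Rxra, the LXR partner, in 7, and Abcg1 and Apoe in 3 each. Without KO 18 h replicate 1 Lpcat3 scored 94.4 ± 2.15 (SD, 16 lists), Mylip 90.8 ± 2.54 and Nr1h2 79.9 ± 10.3. Apoe, a lipoprotein component, was lowest with 3.48 ± 8.57. Rxra had the most sites of all members, 9. Of the uptake and storage genes, none had a promoter peak in all lists. Plin2, which coats lipid droplets, had the highest promoter score (60.4 ± 23.6), then Lpl, lipoprotein lipase (46.9 ± 35.2), then Soat1, which esterifies cholesterol for storage (38.4 ± 24.1), and neighbours in this order overlapped widely. Without KO 18 h replicate 1, which held none of these 3 promoter peaks, the scores were 64.2 ± 18.3 (SD, 16 lists), 49.8 ± 34.2 and 40.8 ± 22.7. Soat1 had 8 sites, the most of this class. A score of 0 means a rank outside the best 24389 peaks, not closed chromatin.

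**Figure D1:**
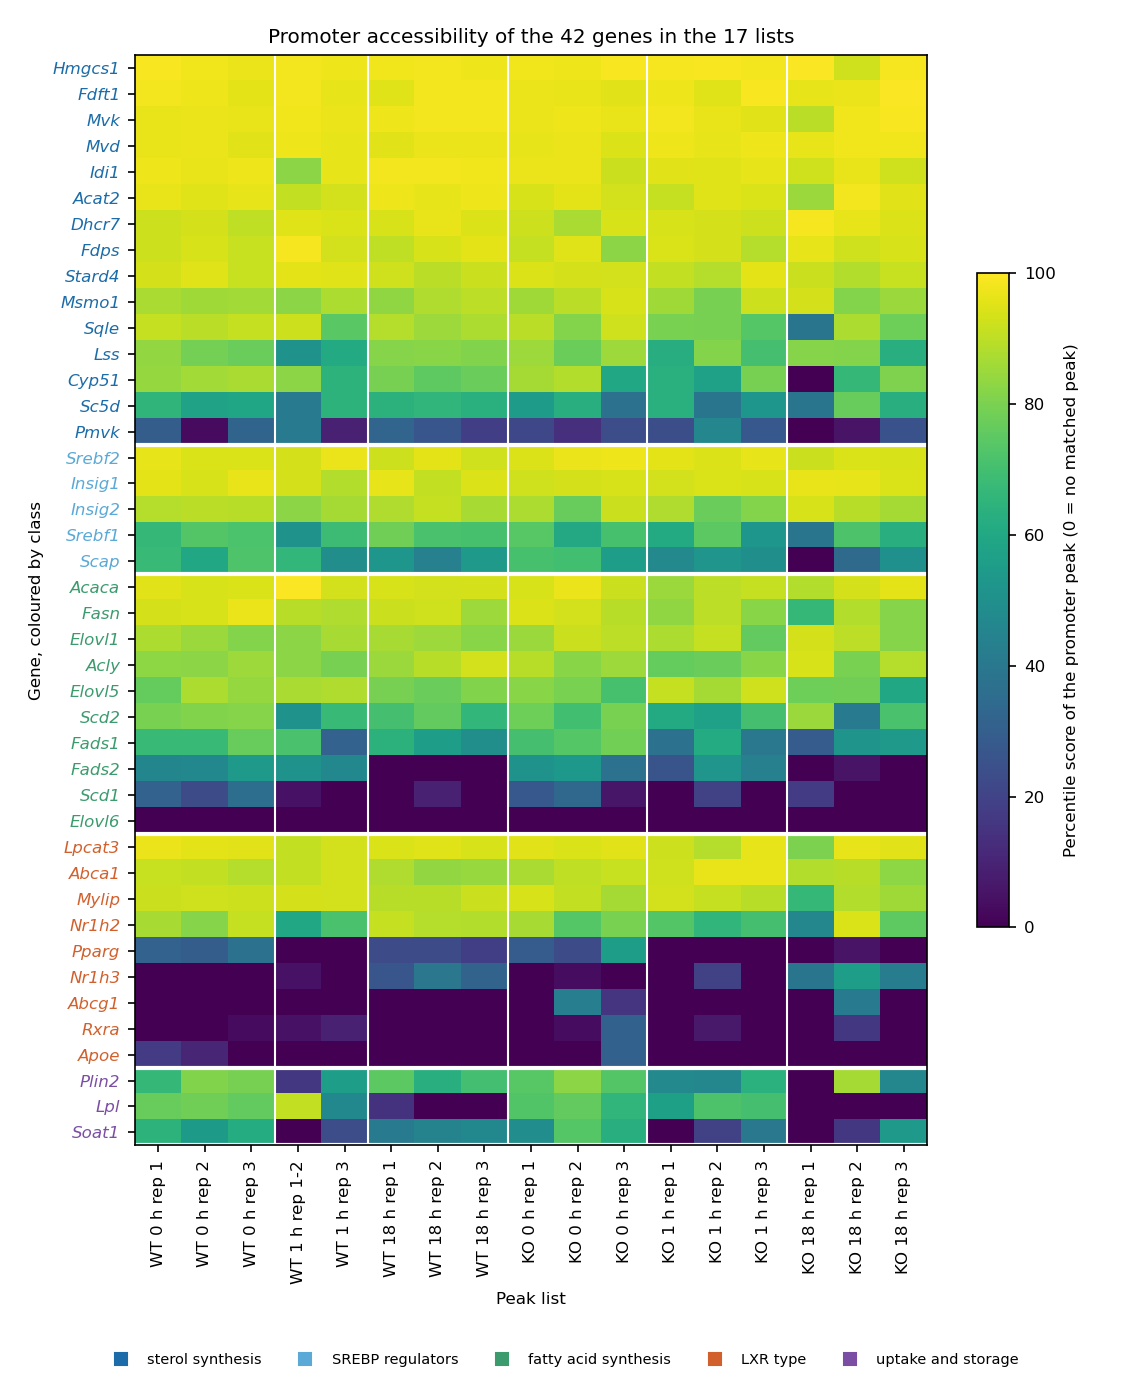
Promoter score of each of the 42 genes (rows, coloured by class and ordered by mean) in each of the 17 lists (columns), with 0 where the matched list held no promoter peak. Most sterol synthesis promoters are near 100 in all groups, apart from Pmvk, Sc5d, Lss, Cyp51 and Sqle. The Nr1h3 row is brightest at 18 h, where the Fads2 and Lpl rows are near 0.

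At 1 h of LPS more of these sites were called lower than higher. Of the 133 sites, 33 fell (24.8%) and 4 rose (3.01%) at 1 h against 0 h (limma on all consensus sites, mean over both genotypes, adjusted p under 0.05). Over all consensus sites 15% fell and 13.3% rose. Split by position, the shares that fell and rose were 17.3% and 4.24% for all promoter sites and 14% and 17.2% for sites elsewhere. Of the 53 promoter sites in the member regions 13 fell (24.5%) and 0 rose, with an unadjusted limma p under 0.05 at 17 sites and 10 calls by the exact permutation test. Leaving out 1 list gave 7 to 16 falls and 0 to 2 rises at these promoter sites. Of the 80 sites elsewhere 20 fell and 4 rose. The median score difference was -3.76 over the members and -1.18 over all sites. For promoter sites, which made up 39.8% of the member sites and 30.2% of all, it was -3.78 in the member regions and -5.27 over all, and for sites elsewhere -3.56 and 0. The 1 h lists included the shallowest ones. With the depth index in the model 21 member sites were called, 17 lower and 4 higher, and 20 of the 37 original calls were among the calls made with it. Without KO 18 h replicate 1, which enters the estimate of the spread, 50 were called, 8 higher and 42 lower, and these included all 37. The falls without it numbered 23 in the synthesis type, 9 in the LXR type and 10 in uptake and storage, against 16, 7 and 10, and the rises 5, 3 and 0, against 2, 2 and 0. At promoter sites 16 fell and 2 rose without it, and 26 fell and 6 rose elsewhere. Of the 37, 20 were called in every fit that left out 1 list.

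In uptake and storage 10 of 16 sites fell (62.5%) and 0 rose at 1 h, against 15% and 13.3% of all consensus sites. Leaving out 1 list gave 6 to 10 falls, with 6 without KO 1 h replicate 1 or KO 1 h replicate 2, and without the former sterol synthesis and the LXR type had 6 falls each as well. The fall was spread over Soat1 (5 sites), Plin2 (4 sites) and Lpl (1 site). At the site Soat1 -2022, chr1:156467634-156469984, in an intron, the scores in WT were 30.6, 62.9 and 42.2 at 0 h, 0 in both lists at 1 h and 50.8, 38.3 and 49.6 at 18 h. In KO they were 43.1, 53.5 and 52.2 at 0 h, 0.613, 0 and 0 at 1 h and 46.4, 16.2 and 36.9 at 18 h. All 5 lists at 1 h lay below all 6 at 0 h, and the lists at 18 h were back in the range of 0 h, apart from KO 18 h replicate 2. The difference at 1 h was -47.3 ± 6.69 (SE; adjusted p = 6.61e-05). A second intronic site, Soat1 +6965, chr1:156459452-156460387, fell by 55.6 ± 9.03 (adjusted p = 0.000239): its scores were 61.2, 61.5 and 55.0 at 0 h, 0 in both lists at 1 h and 25.7, 14.3 and 34.1 at 18 h in WT and 56.0, 57.0 and 42.8 at 0 h, 0 in all 3 lists at 1 h and 66.5, 0 and 18.0 at 18 h in KO. No list held a matched peak there at 1 h, although 3 of the 5 full lists held a peak at 10 to 30 reads, and at 18 h the lists ranged from no matched peak in KO 18 h replicate 2 to the highest of all 17 values in KO 18 h replicate 1.

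Upstream of Plin2, the site Plin2 -1917, chr4:86671423-86672574, had scores of 58.2, 39.9 and 41.8 at 0 h, 0 in both lists at 1 h and 32.7, 16.7 and 36.2 at 18 h in WT and 34.3, 37.1 and 31.1 at 0 h, 0 in all 3 lists at 1 h and 0, 0 and 41.8 at 18 h in KO. It had a matched peak in every list at 0 h and in none at 1 h, where 3 of the 5 full lists held one at 4 to 22 reads, and fell by 40.4 ± 7.30 (adjusted p = 0.000602). The Plin2 promoter fell too, by 32.0 ± 11.4 (adjusted p = 0.0471), and the Soat1 promoter by 45.2 ± 9.39 (adjusted p = 0.00185).

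At synthesis-type genes, 16 of 77 sites fell (20.8%) and 2 rose (2.6%) at 1 h, against 15% and 13.3% of all consensus sites. In sterol synthesis the falls numbered 7 of 30 (23.3%), with 0 rising. None of them was at the promoters of Hmgcs1, Mvk, Mvd, Idi1, Fdft1 or Acat2. Near Hmgcs1 the site that fell was distal, Hmgcs1 +23043, chr13:119712502-119714004, in an intron of the neighbouring Nim1k. Its scores were 53.7, 44.6 and 56.7 at 0 h, 0 in both lists at 1 h and 58.5, 46.9 and 59.4 at 18 h in WT and 57.9, 68.5 and 52.2 at 0 h, 0 in all 3 lists at 1 h and 0, 47.0 and 56.9 at 18 h in KO. It had no matched peak in the 5 lists at 1 h and in KO 18 h replicate 1, and one in the other 11. In the full lists 3 of the 5 at 1 h held a peak there, at 7 to 25 reads, and KO 18 h replicate 1 held one at 6 reads. The difference at 1 h was -55.6 ± 8.30 (SE; adjusted p = 0.00011). Near Fdft1 the falling site, Fdft1 +48726, chr14:63121775-63150999, was 29225 bp wide and had its summit in an intron of Ctsb. It scored 92.0, 93.2 and 95.2 at 0 h, 76.0 and 76.7 at 1 h and 84.8, 86.5 and 84.0 at 18 h in WT and 91.8, 89.6 and 92.1 at 0 h, 82.2, 74.7 and 74.9 at 1 h and 75.7, 85.6 and 87.4 at 18 h in KO, so every list at 1 h was below every list at 0 h, and it fell by 15.5 ± 2.32 (adjusted p = 0.00011). Both promoter sites of Lss, lanosterol synthase, fell, by 18.4 ± 4.51 (adjusted p = 0.00599) and 35.7 ± 7.55 (adjusted p = 0.00211), and so did one of Dhcr7, the last enzyme of cholesterol synthesis, by 10.4 ± 3.41 (adjusted p = 0.0325).

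In the regulators, 2 of 14 sites rose (14.3%) and 1 fell (7.14%) at 1 h, all 3 outside promoters. Over all consensus sites 13.3% rose and 15% fell. The intronic Scap site printed above, chr9:110348725-110349429, lay 4924 bp downstream of an annotated start. Scores in WT were 0 in all 3 lists at 0 h, 79.8 and 68.6 at 1 h and 0 in all 3 lists at 18 h. In KO they were 0 in all 3 lists at 0 h, 57.5, 19.7 and 55.3 at 1 h and 0 in all 3 lists at 18 h. It had a matched peak in all 5 lists at 1 h and in none of the other 12. The difference was 59.2, and within genotypes 74.2 in WT and 44.2 in KO. As the site was kept through the 1 h lists alone, no test is given for it. By the ranks of all deposited peaks, where it was also held at other times, it was higher by 48.9. Those lists differ in length, from 24389 to 71456 intervals, so this value too is a description. The full deposited lists held a peak in 7 of the 12 others, at 9 to 37 reads at the summit. Its printed window holds an NF-kB match near its right end. The second rise, at chr15:82165244-82165814 in Srebf2, was 11.2 ± 3.54 (SE; adjusted p = 0.026), with NBRE and NF-kB matches within 100 bp of the summit.

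The Insig2 site printed above, chr1:121334111-121334940, lay 1904 bp upstream and moved in the opposite direction. Its scores were 47.0, 48.2 and 46.2 at 0 h, 0 in both lists at 1 h and 0 in all 3 lists at 18 h in WT. They were 43.1, 51.6 and 56.1 at 0 h, 0 in all 3 lists at 1 h and 0 in all 3 lists at 18 h in KO. All 6 lists at 0 h held it at a middle rank, and none of the 11 lists with LPS held it among the matched peaks, a difference of -48.7 at both times. As the site was kept through the 0 h lists alone, no test is given for it either. By the ranks of all deposited peaks it was lower by 65.1 at 1 h and by 67.7 at 18 h. Those lists differ in length and reach less far when shallow, so these values too are a description. In the full lists 2 of those 11 held a peak, with 27 reads in WT 18 h replicate 1 and 28 in KO 1 h replicate 1. The Insig2 promoter was called at neither time.

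In fatty acid synthesis 8 of 33 sites fell at 1 h (24.2%, against 15% of all consensus sites) and 0 rose. Leaving out 1 list gave 4 to 13 falls and 0 to 2 rises. Scd2 encodes a stearoyl-CoA desaturase, and the site chr19:44283585-44285094, 9394 bp upstream, fell and came back. The scores in WT were 83.3, 87.0 and 83.6 at 0 h, 40.9 and 38.3 at 1 h and 84.0, 89.6 and 88.2 at 18 h. In KO they were 76.4, 75.8 and 70.9 at 0 h, 51.7, 30.3 and 36.3 at 1 h and 96.1, 80.0 and 88.8 at 18 h. The 5 lists at 1 h lay well below all others, and those at 18 h lay within or above the range at 0 h. The difference was -40.0 ± 4.08 (SE; adjusted p = 2.56e-06) at 1 h and 8.30 ± 3.85 (SE; adjusted p = 0.136) at 18 h. The Acaca site that fell, Acaca -78, chr11:84128945-84130244, lies within 1 kb of start sites of both Acaca and Tada2a. It scored 34.6, 46.0 and 50.1 at 0 h, 0 and 14.4 at 1 h and 44.6, 36.8 and 8.56 at 18 h in WT and 54.2, 57.0 and 42.8 at 0 h, 0 in all 3 lists at 1 h and 0, 5.14 and 0 at 18 h in KO, and fell by 43.9 ± 6.42 (adjusted p = 9.16e-05) at 1 h and by 31.6 ± 6.05 (adjusted p = 0.00112) at 18 h. The other Acaca promoter site was called at neither time.

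Among LXR-type genes 7 of 40 sites fell (17.5%) and 2 rose (5%) at 1 h, against 15% and 13.3% of all consensus sites. The Pparg promoter site, Pparg +279, chr6:115360730-115362575, belongs to the receptor that directs lipid uptake genes. Its scores were 31.4, 29.6 and 37.4 at 0 h, 0 in both lists at 1 h and 23.4, 23.0 and 18.6 at 18 h in WT and 29.0, 22.9 and 56.1 at 0 h, 0 in all 3 lists at 1 h and 0, 5.14 and 0 at 18 h in KO, with no matched peak in any list at 1 h, where 4 of the 5 full lists held one at 4 to 23 reads. It fell by 34.4 ± 5.46 (adjusted p = 0.000187) at 1 h and by 22.7 ± 5.15 (adjusted p = 0.00388) at 18 h. An intronic Rxra site, Rxra +48291, chr2:27757946-27759582, with NF-kB matches within 100 bp of the summit, scored 30.6, 28.6 and 50.1 at 0 h, 0 and 19.3 at 1 h and 58.0, 38.3 and 52.3 at 18 h in WT and 44.1, 47.4 and 47.8 at 0 h, 0, 6.97 and 0 at 1 h and 46.4, 66.6 and 41.8 at 18 h in KO. It was lower at 1 h than in any list at 0 h, with a difference of -35.4 ± 6.52 (SE; adjusted p = 0.000702).

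**Figure D2:**
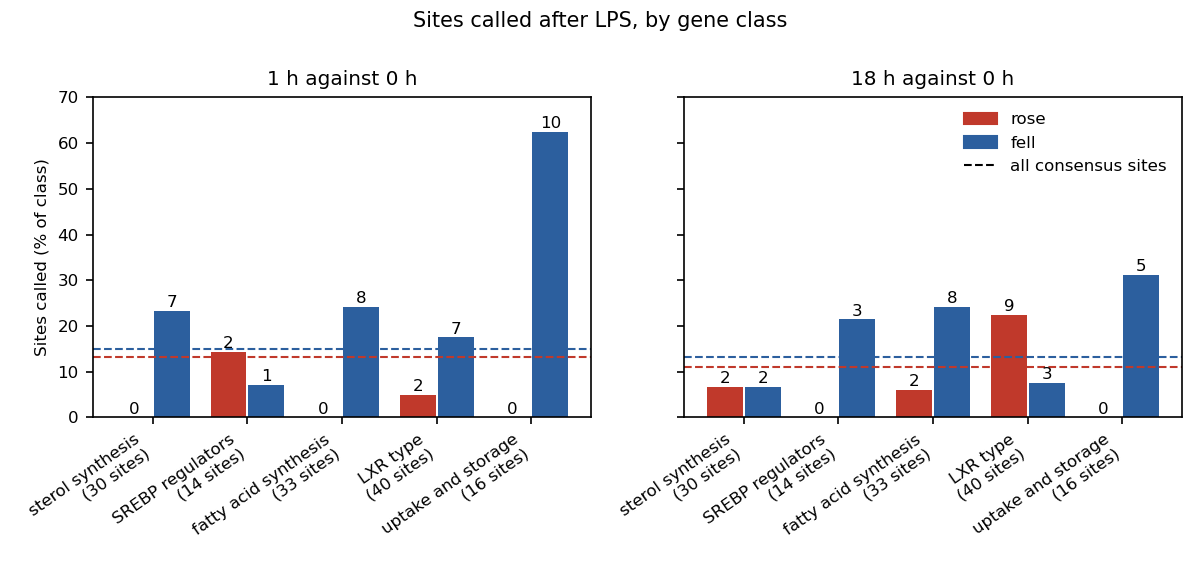
Percentage of the sites of each class that rose (red) or fell (blue) at 1 h and 18 h, with the number of sites on each bar and the same percentages over all 34144 consensus sites as dashed lines. With all 17 lists uptake and storage has the largest share of falling sites at both times. At 18 h leaving out 1 list gave 3 to 6 falls of 16 there and 6 to 9 of 33 in fatty acid synthesis. The LXR type is the class whose risen share is above the line at 18 h.

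At 18 h sites were called in both directions. Of the 133 sites 13 rose (9.77%) and 21 fell (15.8%), against 11.1% and 13.2% of all consensus sites. For promoter sites the shares over the genome were 3.81% risen and 12% fallen, and 1 of 53 rose and 9 fell in the member regions. For sites elsewhere they were 14.2% and 13.7%, with 12 of 80 member sites in each direction. The LXR type held 9 of the 13 rises (22.5% of its 40 sites, with 3 falls), and the synthesis type 4 (of 77 sites, with 13 falls). Of the sites outside promoters, 8 of 30 rose in the LXR type and 4 of 38 in the synthesis type. Without KO 18 h replicate 1 there were 38 calls, 17 higher and 21 lower, with 12 rises and 4 falls in the LXR type, 5 and 13 in the synthesis type and 0 and 4 in uptake and storage. Promoter sites then held 1 rise and 8 falls and sites elsewhere 16 and 13, and 27 of the 34 were called in every fit that left out 1 list. A site was kept if any 2 lists held it, so a site held in lists of a single time was kept through the time at which it is high. There were 15 such member sites. Among the other 118, 3 rose and 32 fell at 1 h (2.54% and 27.1%, against 12.2% and 16.4% of all such sites) and 10 rose and 20 fell at 18 h (8.47% and 16.9%, against 10.7% and 14.3%). No test at equal list length is given for the 15, of which the called ones were Insig2 -1904 at both times, Scap +4924 at 1 h, and Abca1 +40910, Acaca +70924 and Fasn +25386 at 18 h. The difference between the classes was not tested. When all deposited peaks were ranked, with lists of unequal length, 5 rose and 34 fell. No share over all sites is given for that setting, so these counts are not read as a trait of these loci.

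The rises in the LXR class were at Abca1 (2 sites), Abcg1 (2), Nr1h3 (2) and Rxra (3). At Abca1, the exporter that loads cholesterol onto apolipoprotein A-I, both were intronic and are printed above. The site chr4:53126601-53127811, 32927 bp downstream of the start, had scores in WT of 0 in all 3 lists at 0 h, 0 in both lists at 1 h and 54.7, 61.2 and 53.7 at 18 h. In KO they were 0, 8.99 and 0 at 0 h, 0 in all 3 lists at 1 h and 73.1, 59.9 and 53.6 at 18 h. All 6 lists at 18 h held it at a middle rank, and only KO 0 h replicate 2 held it among the other 11. The rise was 57.8, and within genotypes 56.5 in WT and 59.2 in KO. With 1 list outside 18 h, the site was kept only through the 18 h lists. These values are therefore a description, and no test at this list length is given. Full lists outside 18 h held it in 8 of 11, at 3 to 59 reads. The site 40910 bp downstream, chr4:53118420-53119532, scored 0 in all 3 lists at 0 h, 0 in both lists at 1 h and 38.7, 31.9 and 32.0 at 18 h in WT and 0 in all 3 lists at 0 h, 0 in all 3 lists at 1 h and 52.7, 26.4 and 36.9 at 18 h in KO. It had a matched peak in every list at 18 h and in none of the others, a difference of 36.4. It was kept through the 18 h lists alone, so no test is given for it. By the ranks of all deposited peaks, in lists of unequal length, it was higher by 49.7, which is a description. Full lists outside 18 h held it in 5 of 11, at 7 to 25 reads. The Abca1 promoter was called at neither time. Neither printed Abca1 window holds a match to any of the 9 motifs.

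Abcg1 passes cholesterol to high-density lipoprotein. The site Abcg1 +9537, chr17:31066688-31067939, with an AP-1 match, scored 1.61, 6.96 and 1.88 at 0 h, 0 and 34.9 at 1 h and 49.1, 53.1 and 38.2 at 18 h in WT and 0.855, 8.99 and 0 at 0 h, 22.5, 39.0 and 22.5 at 1 h and 93.5, 59.9 and 50.1 at 18 h in KO. All lists at 18 h were above all at 0 h, the lists at 1 h spanned the range between them, and the rise was 53.9 ± 7.57 (SE; adjusted p = 7.32e-05). Its difference at 1 h was 19.3 ± 8.03 (SE; adjusted p = 0.0852). The site Abcg1 +17873, chr17:31073589-31076177, rose early and stayed. Its scores were 0 in all 3 lists at 0 h, 51.5 and 51.6 at 1 h and 22.1, 36.8 and 34.1 at 18 h in WT and 0 in all 3 lists at 0 h, 53.5, 6.97 and 72.2 at 1 h and 29.2, 56.0 and 56.9 at 18 h in KO. No list at 0 h held it among the matched peaks and all 11 lists with LPS did, with the lowest value in KO 1 h replicate 2. The rise was 47.9 ± 9.22 (SE; adjusted p = 0.00101) at 1 h and 39.2 ± 8.69 (SE; adjusted p = 0.00339) at 18 h.

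Nr1h3 encodes LXR alpha, and its promoter site chr2:91194508-91195526 was the 1 promoter site of the members that rose. WT lists scored 0 in all 3 lists at 0 h, 4.94 and 0 at 1 h and 26.7, 39.6 and 32.0 at 18 h. KO lists scored 0, 3.29 and 0 at 0 h, 0, 19.7 and 0 at 1 h and 38.8, 56.0 and 41.8 at 18 h. Every list at 18 h was above every list at 0 h and at 1 h, and the rise was 38.6 ± 4.80 (SE; adjusted p = 2.08e-05). The intronic site Nr1h3 -1779, chr2:91196247-91197826, already strong, scored 85.1, 87.8 and 87.5 at 0 h, 87.5 and 90.4 at 1 h and 95.3, 97.2 and 96.8 at 18 h in WT and 85.4, 86.0 and 91.5 at 0 h, 96.0, 94.8 and 96.3 at 1 h and 94.1, 96.9 and 96.7 at 18 h in KO, and rose by 5.07 ± 1.52 (adjusted p = 0.0198) at 1 h and 8.94 ± 1.43 (adjusted p = 0.000231) at 18 h. For the partner Rxra, the intronic site Rxra +3780, chr2:27713848-27715840, scored 4.87, 8.76 and 0 at 0 h, 0 in both lists at 1 h and 54.7, 52.1 and 41.9 at 18 h in WT and 22.6, 14.0 and 6.02 at 0 h, 6.99, 19.7 and 0 at 1 h and 46.4, 59.9 and 73.3 at 18 h in KO. It rose by 45.3 ± 5.62 (adjusted p = 2.11e-05), with all lists at 18 h above all others. The site Rxra +17689, chr2:27727502-27729324, scored 0 in all 3 lists at 0 h, 4.94 and 3.10 at 1 h and 37.1, 30.3 and 21.7 at 18 h in WT and 0 in all 3 lists at 0 h, 4.82, 6.97 and 10.9 at 1 h and 17.3, 47.0 and 41.8 at 18 h in KO, and rose by 32.5 ± 4.94 (adjusted p = 0.000147). Another Rxra site, chr2:27739757-27741040, rose from a high level by 14.8 ± 2.90 (adjusted p = 0.00135).

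**Figure D3:**
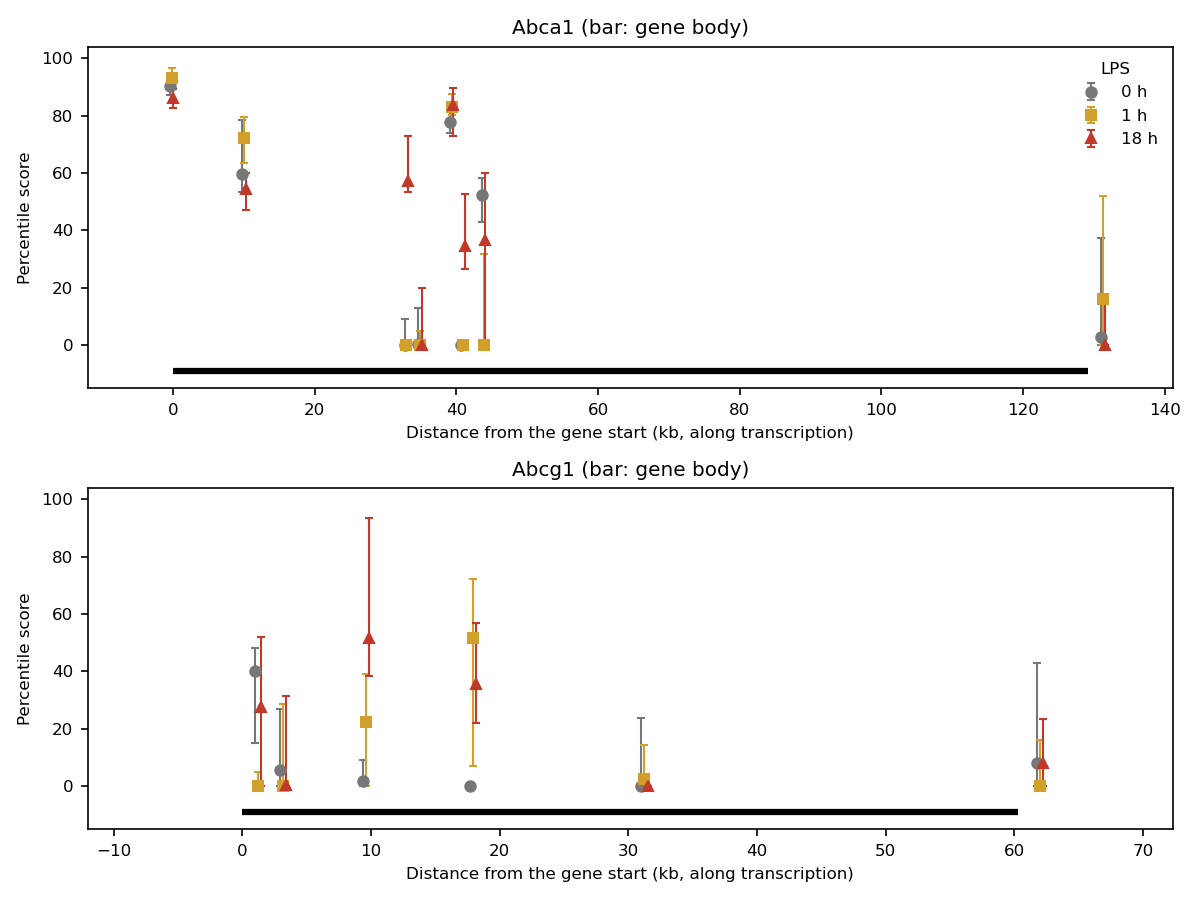
Sites at Abca1 and Abcg1 by distance from the gene start (kb) and percentile score, with the median (symbol) and the lowest and highest list (bars) at 0 h (6 lists), 1 h (5) and 18 h (6). The 18 h symbols stand above the 0 h symbols at the Abca1 sites near 33 and 41 kb and at the Abcg1 sites near 10 and 18 kb, while the Abca1 promoter stays near 90.

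On the synthesis side the site with the smallest adjusted p among the rises at 18 h was Mvd +5278, chr8:122436319-122438737, in an intron of Mvd. Its scores were 8.02, 17.1 and 0 at 0 h, 0 in both lists at 1 h and 39.4, 61.2 and 58.3 at 18 h in WT and 0.855, 0 and 0 at 0 h, 0 in all 3 lists at 1 h and 5.33, 41.3 and 18.0 at 18 h in KO. Its rise was 32.9 ± 5.87 (SE; adjusted p = 0.000623). The WT lists at 18 h were above all WT lists at 0 h, and the KO lists were above all KO lists at 0 h, but KO 18 h replicate 1 lay inside the range of WT at 0 h. When all deposited peaks were ranked, the rises at this site and at the Abcg1 +9537, Nr1h3 -5, Nr1h3 -1779, Rxra +3780 and Rxra +17689 sites no longer passed the threshold, 6 in all. With the 10000 best peaks of each list, 14 of the 24 named calls, 12 at each time, had no site. Of the other 10, 5 no longer passed, the rises at Abca1 +32927 (7.18 ± 4.28, SE; limma adjusted p = 0.294), Abcg1 +9537 and Rxra +3780 at 18 h and the falls at Hmgcs1 +23043 and Soat1 +6965 at 1 h. The other 3 synthesis-type rises were at Mvd +13123, inside Cyba, at Acaca +70924 and at Fasn +25386. Fasn +25386 had a matched peak in the 3 KO 18 h lists and in no other list, so it was kept as a site through that group alone and its values are a description.

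The fall of the largest size at 18 h was at the Lpl promoter. Lipoprotein lipase releases fatty acids from lipoproteins. The promoter site chr8:68879904-68885731 scored 76.8, 78.4 and 76.0 at 0 h, 90.9 and 46.7 at 1 h and 14.6, 0 and 0 at 18 h in WT. It scored 72.8, 75.8 and 65.7 at 0 h, 56.7, 72.1 and 70.6 at 1 h and 0 in all 3 lists at 18 h in KO. All 11 lists at 0 and 1 h held it at a high or middle rank, and at 18 h only WT 18 h replicate 1 held it, near the bottom. The difference was -71.8 ± 6.49 (SE; adjusted p = 1.08e-06) at 18 h, -72.2 in WT and -71.4 in KO, and -6.63 ± 6.88 (SE; adjusted p = 0.529) at 1 h. In the full lists 4 of the 6 at 18 h held a peak there, at 8 to 50 reads. A second Lpl site, chr8:68905793-68916870, 11078 bp wide, fell by 38.1 ± 6.98 (adjusted p = 0.000775).

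The Fads2 promoter belongs to a desaturase of polyunsaturated fatty acid synthesis. The site chr19:10100369-10102280 scored 45.9, 46.8 and 53.6 at 0 h, 51.5 and 46.7 at 1 h and 0 in all 3 lists at 18 h in WT and 51.5, 53.5 and 37.3 at 0 h, 25.8, 52.1 and 43.6 at 1 h and 0, 5.14 and 0 at 18 h in KO. It had a matched peak in every list at 0 and 1 h and scored at or near 0 in every list at 18 h. The difference was -47.2 ± 5.24 (SE; adjusted p = 7.16e-06). In the full lists at 18 h the summit reads were 40, 22 and 15 in WT and 6, 6 and 0 in KO, with 0 for no peak. An intronic site of the elongase Elovl5, Elovl5 +20279, chr9:77961099-77962037, scored 36.8, 31.7 and 37.4 at 0 h, 0 and 8.99 at 1 h and 0, 6.57 and 0 at 18 h in WT and 37.9, 49.5 and 42.8 at 0 h, 44.0, 52.1 and 27.5 at 1 h and 29.2, 0 and 9.70 at 18 h in KO, and fell by 31.8 ± 5.78 (adjusted p = 0.000723). Also lower at 18 h were the promoters of Scap, by 27.0 ± 7.06 (adjusted p = 0.0102), Fasn, fatty acid synthase, by 9.10 ± 3.00 (adjusted p = 0.0361), Fads1, by 21.8 ± 6.91 (adjusted p = 0.0299), and Scd1, by 21.9 ± 5.70 (adjusted p = 0.00986). An exonic Pparg site, chr6:115462585-115463607, fell by 43.4 ± 8.54 (adjusted p = 0.00139). Of the 17 member promoter sites of sterol synthesis, 0 were called at 18 h by limma or by the exact permutation test, and 1 had an unadjusted limma p under 0.05.

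Over both times, 12 of the 133 sites fell at 1 h and at 18 h, 21 fell at 1 h alone and 9 at 18 h alone (9.02%, 15.8% and 6.77%). Over all consensus sites these shares were 6.08%, 8.43% and 6.27%. Rises at both times were called at 2 sites, Abcg1 +17873 and Nr1h3 -1779, at 1 h alone at 2, and at 18 h alone at 11 (1.5%, 1.5% and 8.27%, against 3.55%, 8.89% and 7.02% of all sites). No member site rose at one time and fell at the other, as 0.849% of all sites did in that order and 0.483% in the reverse order. A call at one time alone does not show that the times differed. Some calls described above ended in limma fits that left out 1 list. At 1 h the Plin2 promoter ended in 14 of the 17 such fits (adjusted p up to 0.253), that of Dhcr7 in 8 (up to 0.230) and the Srebf2 site in 5 (up to 0.132). The size of the first 2 fell most without WT 1 h replicate 1-2, to -22.1 at Plin2 and -5.85 at Dhcr7, and that of Srebf2 without WT 1 h replicate 3, to 5.57. Nr1h3 -1779 ended at 1 h without WT 0 h replicate 1 (adjusted p = 0.0505) or WT 1 h replicate 3 (adjusted p = 0.0624). At 18 h the Fasn promoter ended in 7 fits (up to 0.0963) and the Fads1 promoter in 6 (up to 0.0756). The comparisons share the 0 h lists.

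**Figure D4:**
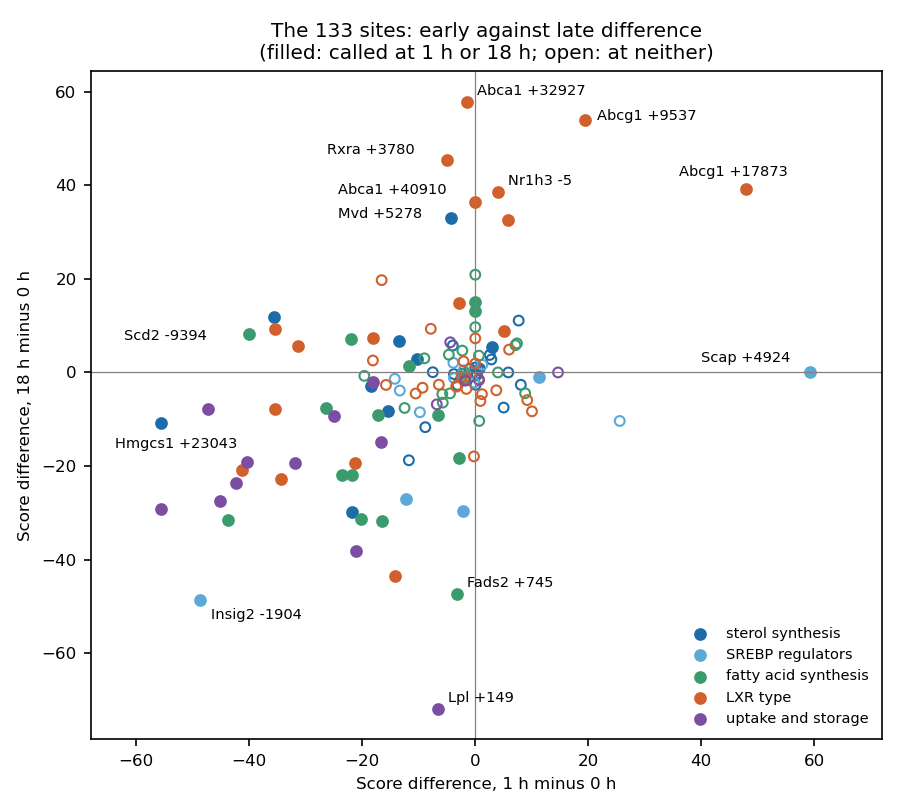
Score difference of each of the 133 sites at 1 h (horizontal) and 18 h (vertical) against 0 h, coloured by class, with filled points for sites called at either time. The LXR-type points lie highest, Abca1 +32927 at 57.8, Scap +4924 lies far right at 59.2 with no difference at 18 h, and Lpl +149 lies lowest at -71.8.

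**Figure D5:**
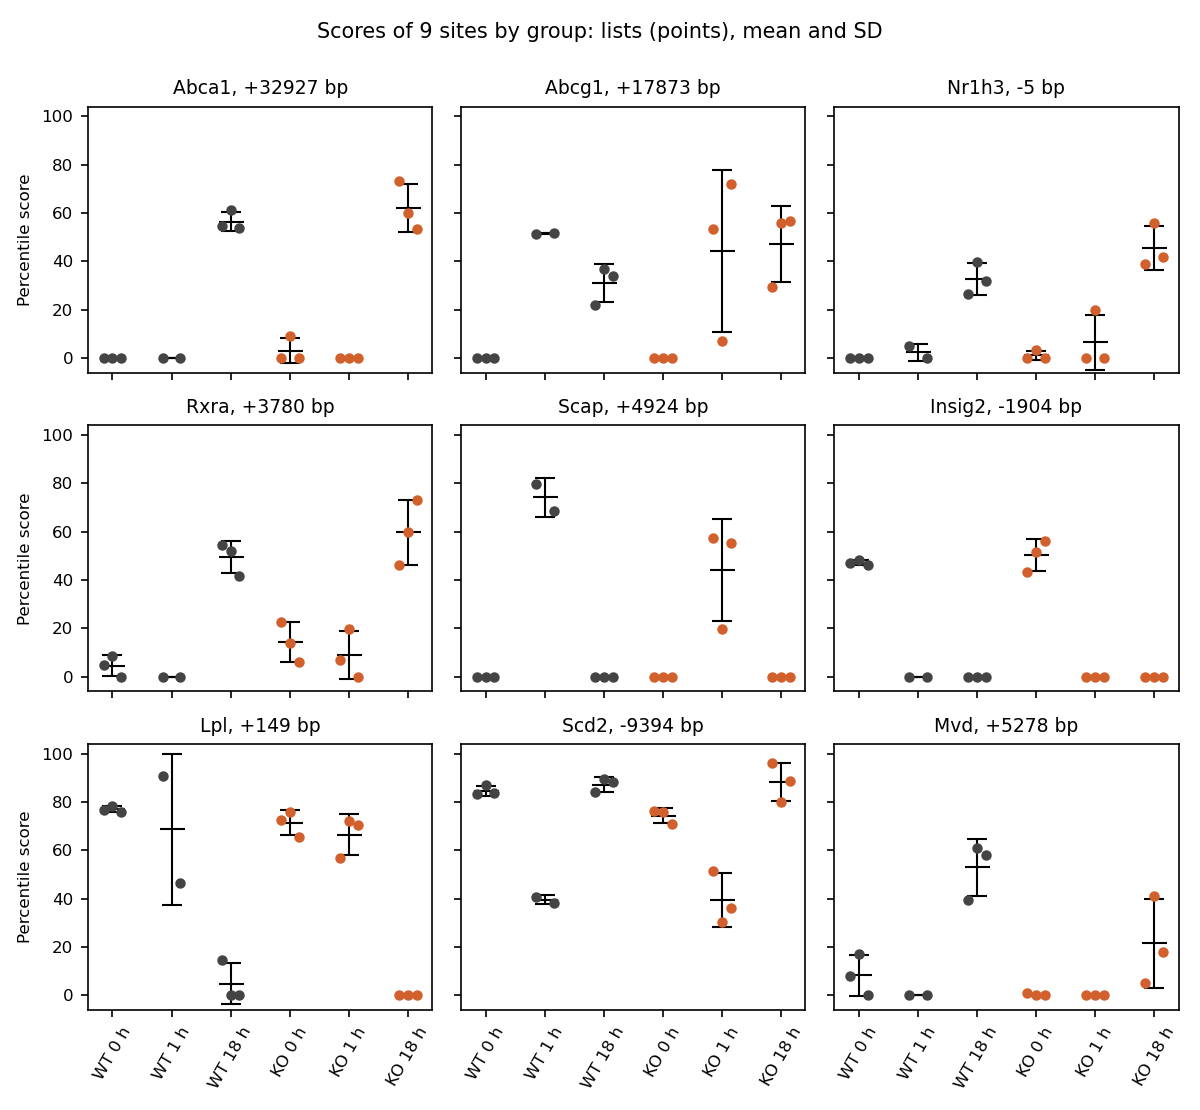
Scores of 9 sites in the 6 groups, 1 point per list (WT grey, KO orange), with the mean and SD as bars. The KO lists follow the WT lists at Abca1, Nr1h3, Rxra, Insig2 and Lpl, and the Scap and Mvd sites have lower means in KO than in WT at 1 h and 18 h respectively.

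In the Nur77 KO none of the 133 sites passed the threshold against WT. KO against WT gave 0 calls by limma and 0 by the exact permutation test, with 7 sites at an unadjusted p under 0.05 by limma and 8 by the exact permutation test, against 0.466% of all consensus sites called by limma. A call by the exact test needs 171 sites at its smallest p of 0.00025, which 65 of the 34144 reached. The smallest adjusted p was that of the Elovl5 site chr9:77961099-77962037, whose score was 18.5 ± 4.91 (SE) higher in KO (adjusted p = 0.148) as a mean over the 3 times. The difference was 8.11 at 0 h, 36.7 at 1 h and 10.8 at 18 h, and the scores given above show that the KO lists at 1 h lay above both WT lists at 1 h. The Mvd site +5278 was lower in KO by 13.2 ± 4.98 (SE; adjusted p = 0.389).

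The difference of the LPS responses between genotypes passed the limma test at 0 of the 133 sites at 1 h (2 with an unadjusted p under 0.05, 0.105% of all sites called) and at 0 at 18 h (7 with an unadjusted p under 0.05, 0.00879% of all sites called). The exact permutation test could not settle this: at its smallest p of 0.005 a call needs 3415 sites at that p, and 141 and 138 of the 34144 reached it. At the Scap site, kept through the 1 h lists alone, the difference at 1 h was 30.0 smaller in KO than in WT, given as a description with no test. The 3 KO lists lay below both WT lists there, the lowest, KO 1 h replicate 2, at 19.7. At 18 h the site with the smallest adjusted p was Fasn +25386, which was kept through the KO 18 h lists alone, so no test is given for it. All 3 KO 18 h lists were shallower (1.10 to 1.76) than the WT 18 h lists (4.62 to 8.38). With the depth index in the model 0 sites were called for this difference. With sites built from summit windows the Abcg1 +17873 site was lower in KO by 11.4 ± 2.04 (SE; limma adjusted p = 0.0163), and its response at 1 h was lower in KO by 34.3 ± 5.10 (adjusted p = 0.00803). With merged sites neither passed, and the first had the opposite sign, KO minus WT being 3.01 ± 7.39 (SE; adjusted p = 0.9) as a mean over the times and -7.34 ± 18.4 (SE; adjusted p = 1) for the response at 1 h. In the full lists 10 of 17 held the Fasn +25386 peak, with 15 to 30 reads at the summit in the 3 WT 18 h lists and 8 to 12 in the 3 KO 18 h lists.

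Genes of the same pathways outside the members were counted in the same way. Near 10 further synthesis genes, 6 of 28 sites fell (21.4%) and 0 rose at 1 h, and 5 fell (17.9%) and 1 rose (3.57%) at 18 h. Near 10 further genes of cholesterol export and its nuclear receptors, 14 of 55 sites fell (25.5%) and 4 rose (7.27%) at 1 h, and 9 rose (16.4%) and 4 fell (7.27%) at 18 h. Over all consensus sites 15% fell and 13.3% rose at 1 h, and 13.2% fell and 11.1% rose at 18 h. KO against WT gave 0 calls in both lists.

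Base composition and motifs around the summits are given last. Member promoter sites of the synthesis type had a median GC content of 64.7% (33 sites, 201 bases each), against 63.7% for all promoter sites, and the LXR-type promoter sites had 70.1% (7 sites). CCAAT was within 100 bp of the summit at 51.5% of the synthesis-type promoter sites, 42.9% of the LXR-type ones and 30.8% of all promoter sites. AP-1 was at 7.69% of the 13 sites that rose at 18 h and at 18.2% of the 33 that fell at 1 h, against 19.9% of all consensus sites. NF-kB was at 2 of the 4 sites that rose at 1 h, Scap +4924 and Srebf2 +17503, against 4.82% of all sites. DR4 was found at 0 of 7 promoter and 0 of 30 other LXR-type sites, and at 0.105% of all sites, and at 1 of 38 synthesis-type sites outside promoters. NBRE was at 0 of 37 LXR-type sites outside neighbouring promoters and 1.04% of all sites.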

How the data were processed

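ATAC-seq of 17 samples was analysed. Per the labels and the methods of the study, the authors trimmed reads with cutadapt 2.6, aligned them to mm10 and called peaks in each sample with the snakeATAC pipeline, and peak names carry a q threshold of 0.001 and a mapping quality of 20. The authors deposited 1 narrowPeak list per sample, holding an integer score, a fold enrichment over background, a −log10 p and a −log10 q, with no read counts. Reads at each summit and the background per kb (the depth index) were recovered from the deposited fold enrichment and −log10 p, with whole reads for 100% of entries. The authors' differential test with DiffBind 3.0.15 needs the reads and was not refitted.

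Entries of 1 interval were collapsed to the best, and each list was cut to its 24389 best peaks by −log10 p, the length of the shortest list, with ties ordered by a fixed seed of 1, and ranked. Peaks overlapping by at least 1 bp were merged and sites found in 2 or more lists kept. Lists run from 26558 to 92594 peaks as deposited, so depth sets how low a list reaches, and a rank does not measure absolute signal. Starts came from GENCODE M21 (GRCm38). Scores were fitted with limma 3.58.1 (R 4.3.3; 6 group means, trend and robust eBayes, 11 residual degrees of freedom) over all sites, with Benjamini-Hochberg adjustment over all of them and calls under 0.05. Two-sided exact permutation tests, within genotype or, for KO against WT, within time, were the alternative. The smallest p they allow is 0.005 for the LPS comparisons and the differences of responses, and 0.00025 for KO against WT. All scripts used Python 3.11.15, NumPy 2.4.6, SciPy 1.17.1, pandas 2.3.3 and pysam 0.24.0, and the fit was tested on simulated data. Alternatives were other list lengths, a log2 rank scale, sites from summit windows, the log2 depth index as a covariate and leaving out each list. A replicate block was fitted without WT 1 h replicate 1-2.

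Members, lists and tests were chosen with earlier results of these data known. Sites are named with full values where they were among the 12 called sites with the smallest adjusted p of a comparison. Promoters are named where they were highest or lowest of their class or lacked a peak in some list, and genes where they held the most sites of their class. Other names were chosen after their values were seen.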

Additional observations from a re-analysis of the deposited data

How the results depend on the processing

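The counts of 37 sites at 1 h and 34 at 18 h depended on list length: with the 10000 best peaks of each list, 13 and 11 were called. With the depth index as a covariate 21 were called at 1 h (17 lower, 4 higher) and 33 at 18 h. All deposited peaks gave 48 at 1 h (3 higher, 45 lower) and 39 at 18 h (5 higher, 34 lower), against 4 and 33, and 13 and 21. Summit windows gave 8 higher and 29 lower at 1 h. For the alternative settings no shares over all consensus sites are given, here or above. Their counts describe the settings, not a trait of these loci. Leaving out 1 list gave 26 to 50 calls at 1 h and 29 to 38 at 18 h, 0 to 1 for KO against WT, 0 to 1 for the difference of responses at 1 h and 0 to 2 at 18 h. KO against WT gave 1 call with all deposited peaks (Acaca, -28.0) and 1 with summit windows (Abcg1 +17873, -11.4), which also gave the 1 call for the difference at 1 h (-34.3). The calls made without 1 list were Fasn +25386 and Elovl6 +21405 for KO against WT, without KO 18 h replicates 1 and 2, Idi1 +208 at 1 h without WT 1 h replicate 3, and at 18 h Fasn +25386, Elovl6 +21405, Lpcat3 +8071 and Fads1 -1586. Fasn +25386 and Lpcat3 +8071 had matched peaks in lists of a single group, and Elovl6 +21405 in lists of a single time, through which they were kept. The cause was not tested. Of the 37 and 34 calls, 16 and 22 held in every run that left out a list, with depth, on the log2 scale and by the exact test. No direction of the 24 named calls after LPS was reversed.

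Same-numbered lists did not deviate together (median correlation -0.00570 over 35 pairs, -0.134 to 0.0901). For differently numbered lists the median was 0.00196 over 70 pairs (-0.161 to 0.183). No pairing by number was seen, but this cannot exclude one, as no label says which lists share a mouse. With a replicate block 28 sites were called at 1 h (8 higher, 20 lower), 34 at 18 h and 0 for KO against WT and for both differences of responses. Depth limits weak sites: in the shallowest list the last matched peak held 3 reads at its summit.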
